A study of Caenorhabditis elegans with 8 samples.

Results

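The C-type lectin family of Caenorhabditis elegans was followed over 8 whole-worm expression arrays. Members were the genes whose symbol is clec followed by a number and whose array feature carries that symbol alone. Where a gene had several features, the feature with the highest mean was taken, which applied to clec-260. This gave 247 genes, of which 233 are annotated as protein-coding and 14 as pseudogenes, among 25478 genes with 1 symbol and 27792 features on the array. Another 6 features carried a clec symbol together with a second symbol and were not used as members.

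C-type lectins are proteins built around a fold that in many relatives binds sugars in the presence of calcium. In C. elegans the family is large, many of its products carry signal peptides for secretion, and sets of its genes are induced in the intestine when worms meet bacterial pathogens. A few members have other known roles, such as clec-87 and clec-88, whose products are chondroitin proteoglycans of the embryo, and clec-38, which acts in neurons.

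The arrays compared ash-2 RNAi with control RNAi in 4 strains. RNAi ran for 3 days and ended in young adults, and strains were kept at 20 °C on Escherichia coli OP50. Strain VP303 restricts RNAi to the intestine, NR350 to muscle and TU3401 to neurons, and N2 is the wild type, in which RNAi acts throughout the body. As background, VP303 and NR350 are known as rde-1 mutants carrying an rde-1 transgene under the intestinal nhx-2 or the muscle hlh-1 promoter, and TU3401 as a sid-1 mutant carrying sid-1 under the neuronal unc-119 promoter; the labels give strain names and the tissue, and no alleles. Each of the 8 groups (VP303, NR350, TU3401 and N2, each with ash-2 and with control RNAi) had 1 array, so the 4 strains are the only repeats of the treatment and the 2 treatments are the only repeats of a strain. The product of ash-2 is part of a complex that methylates histone H3.

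RNA came from worms and not from dissected tissue, and markers of several tissues gave signal. A mean intensity above 32 was reached by 9 of 9 measured intestinal, 7 of 8 muscle, 6 of 10 neuronal and 8 of 8 oocyte markers. It was reached by 5 of 8 hypodermal and 1 of 8 sperm markers. In such bulk samples, fewer cells of a type and less RNA per cell cannot be told apart. The signal of ash-2 itself went against the treatment labels. It read 233 on the array labelled ash-2 and 148 on the control array of VP303, 269 and 146 in NR350, 198 and 122 in TU3401, and 183 and 149.8 in N2, a mean log2 difference of 0.63 (limma adjusted p = 0.302). It was thus higher on the array labelled ash-2 in all 4 strains, and those arrays are called by their label below. Of the genes known from the strains' transgenes, rde-1 and the coinjection marker rol-6 were high in VP303, sur-5 in NR350 and sid-1 in TU3401, while rde-1 in NR350 (51.6 and 49.6) was not above N2 (61.3 and 56.0).

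Most of the family gave little signal. Array medians lay between 21.1 and 21.6, and the lowest value on any array was 18.01, so an intensity near 20 is close to the floor of the table. A mean intensity above 32 was reached by 41 of the 247 genes, or 16.6%, while 31.3% of all features reached it. Of the 41, 34 were above 32 on all 8 arrays, and 27 had a mean above 64. The 206 others had means between 19.04 and 31.8 with a median of 20.0, and only 7 of them passed 32 on any array. None of the 14 pseudogenes had a mean above 32. The mean was taken over all 8 arrays, so a gene can pass the line through the strain in which it is high, as clec-41 did, with a mean of 28.8 over the 6 arrays outside NR350. Shares of the 41 are therefore given beside those of all features as descriptions. Just above the line stood clec-41 at 34.6, clec-227 at 34.1 and clec-12 at 33.9. Just below it stood clec-218 at 31.8, clec-8 at 30.4 and clec-54 at 29.6. Intensities of different genes also depend on their probes, so the order of genes by signal is not an order of transcript abundance.

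**Figure D1:**
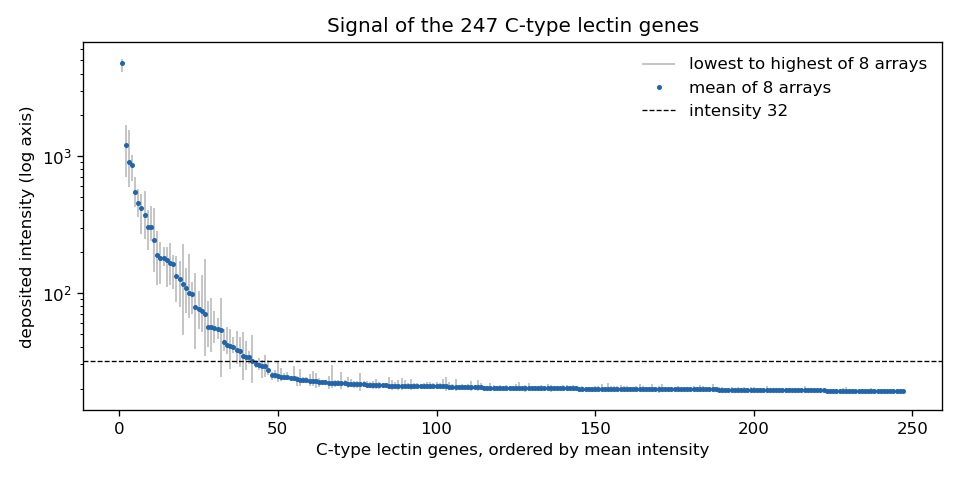
Deposited intensity (log axis) of the 247 C-type lectin genes, ordered by their mean over 8 arrays. Points are means, grey bars run from the lowest to the highest array, and the dashed line marks 32, which 41 genes exceed.

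The proteoglycan gene clec-87 gave 4719 and 5008 in VP303 (the array labelled ash-2 is given before the control array here and in what follows), 4454 and 4114 in NR350, 4941 and 5097 in TU3401, and 5099.5 and 4957 in N2. It was among the steadiest members, with strain means spanning only 0.23 on the log2 scale and the lowest values in NR350. Its fellow proteoglycan gene clec-88 gave 447 and 574 in VP303, 356 and 438 in NR350, 381 and 513 in TU3401, and 483 and 437 in N2. The strains overlapped for clec-88, and neither gene passed any of the tests described below.

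Another 3 members had means of 864 and above. The gene clec-150 ranged widely, with 1056 and 981 in VP303, 1524 and 1012 in NR350, 1579.7 and 1697 in TU3401, and 696 and 1022 in N2. Both TU3401 arrays lay above both N2 arrays, and the 2 NR350 arrays lay far apart. The gene clec-1 read between 652 and 1008 on the 8 arrays, with the lowest and the highest value both in TU3401. The third, clec-63, was the member with a large strain difference among these and is described with NR350. Other members with strong signal were clec-50 (mean 549), clec-91 (416), clec-85 (371), clec-186 (305), clec-84 (303), clec-222 (243) and clec-97 (188).

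Members known from work on infection were split between both ranges of signal. Of 23 clec genes with a described role that were listed for this work, 11 had a mean above 32: clec-4 and clec-41, which are known from work on defence against Bacillus thuringiensis, clec-67 and clec-85, which are widely used as reporters of the PMK-1 p38 pathway, clec-49, clec-63, clec-65, clec-66, clec-83, and the proteoglycan genes clec-87 and clec-88. The other 12 had little signal. Among them were clec-60 at 21.3, clec-61 at 19.5, clec-70 at 22.0 and clec-71 at 19.3, which are known to be induced by bacterial infection and here were read in worms without a labelled infection. The genes clec-39 at 20.1, clec-38 at 20.9, clec-42 at 21.5, clec-82 at 20.0, clec-86 at 20.3, clec-17 at 23.4, clec-52 at 24.0 and clec-7 at 29.1 were likewise under the line, and changes of such genes are compressed by the floor.

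Many members sit beside each other in the genome. In the order of genes in the RefSeq annotation of assembly WBcel235, 128 of the 247 have another clec gene as a direct neighbour. Counted over all 264 clec genes of that annotation, members or not, there were 45 runs, of which the longest holds 13 genes. Sitting in a run went with no higher share of measurable genes: 15.6% of the members in runs and 17.6% of those outside them had a mean above 32. Neighbours could differ strongly in signal. In the run of clec-62, clec-63, clec-64, clec-65 and clec-66, all but clec-64 had a mean above 32, while clec-67 was the only member above 32 in its run of 6 genes and clec-97 the only one in another run of 6.

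**Figure D2:**
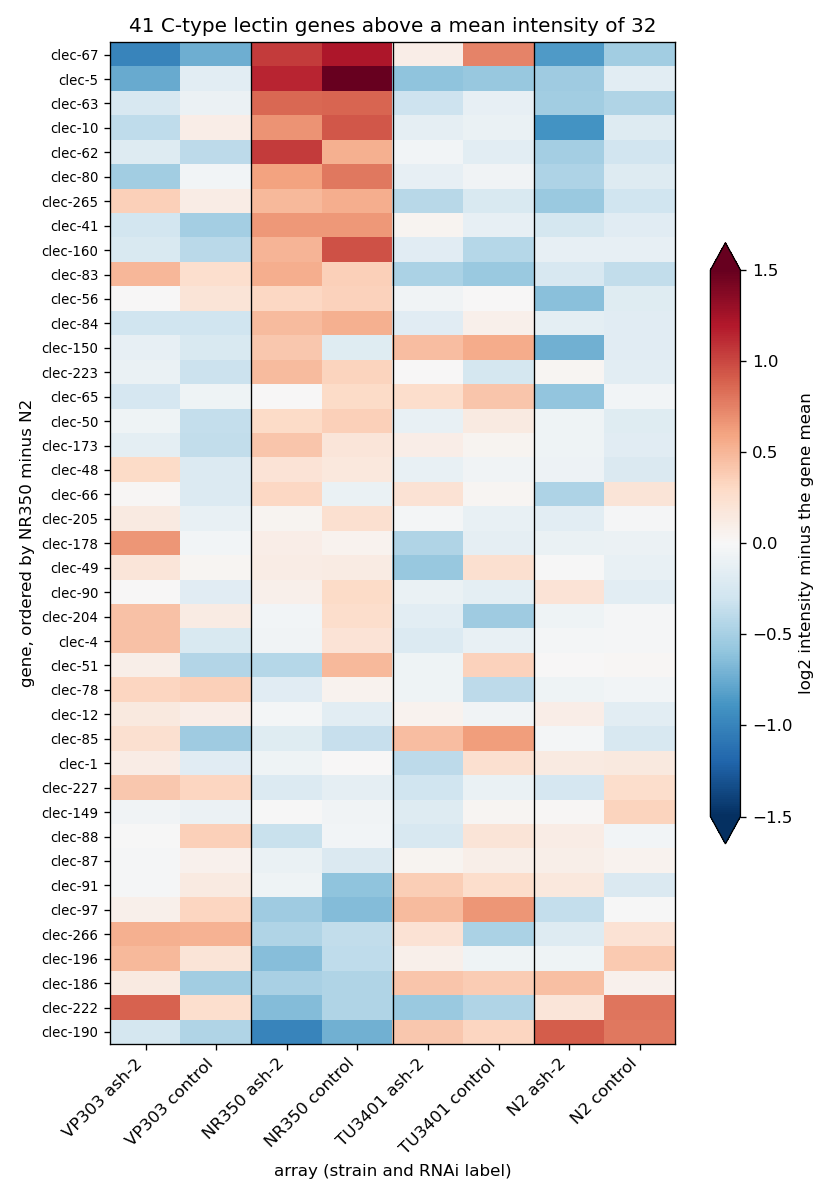
Log2 intensity of the 41 members with a mean above 32 on each of the 8 arrays, as a difference from the gene's own mean, with genes ordered by NR350 minus N2. A block of genes, among them clec-67, clec-5, clec-63 and clec-10, is higher on both NR350 arrays, and clec-190 is lower there and in VP303.

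Members with measurable signal varied between strains, led by clec-67, clec-5 and clec-190. A moderated F test in limma over the 4 strains, fitted on all 27792 features with treatment in the model, passed an adjusted p of 0.05 for 20 of the 247 members (8.10%), against 8.42% of all features. Among the 41 members above 32 it passed for 16, against 21.5% of the features above 32. Strain means spanned more than 1 on the log2 scale for 11 of the 41 (26.8%), against 8.16% of features above 32, and the median span was 0.66 against 0.43. Both the 16 and the 11 include clec-41, which passed 32 only through NR350. The members that passed with the widest spans were clec-67 (span 2.00, adjusted p = 5.87e-05), clec-5 (1.97, 4.57e-05), clec-190 (1.71, 0.000120), clec-63 (1.35, 0.000244) and clec-10 (1.35, 0.00313), followed by clec-62 (1.18), clec-97 (1.16), clec-222 (1.12), clec-160 (1.05) and clec-41 (1.04). With 1 array per group and no label naming separate cultures, these p-values measure the spread between single arrays of a strain under different treatments.

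The strain that stood apart was NR350, the strain with RNAi in muscle. It had the highest mean of the 4 strains for 19 of the 41 members (46.3%, against 28.8% of features above 32), whereas N2 had the highest mean for 4 (9.76%, against 32.9%). Among the 19 is clec-41, which is one of the 41 only through NR350. Relative to N2, 21 of the 247 members passed the limma test, 17 higher and 4 lower, with 7.18% of all features passing, 4.02% higher and 3.16% lower. Of the 41 members above 32, 13 were higher and 3 lower, while 9.2% of features above 32 were higher and 8.79% lower. The 13 include clec-41, which passed 32 only through NR350. A filter added after the data had been seen set the line by the VP303 and TU3401 arrays alone. Neither strain is a side of this comparison, though the arrays of both enter the fit and its residual variance. Under that line 12 of 40 members were higher and 3 lower, against 8.6% and 8.86% of the features. The median difference of the 41 was 0.18 on the log2 scale, and that of the features above 32 was −0.08.

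The largest rises in NR350 were those of clec-67 and clec-5. The PMK-1 reporter gene clec-67 gave 204 and 227 in NR350, 105 and 164 in TU3401, 49.2 and 58.9 in VP303, and 54.6 and 68.3 in N2. Both NR350 arrays lay above all 6 others and both TU3401 arrays above those of VP303 and N2. NR350 exceeded N2 by 1.82 ± 0.16 on the log2 scale (SE, 3.52-fold, adjusted p = 5.53e-05). The other reporter gene of that pathway, clec-85, did not pass between NR350 and N2. The mean intensity of clec-85 was 371 over all arrays and 395 over those outside NR350, so its NR350 arrays averaged below the rest. For clec-5 the values were 128 and 178 in NR350, 34.5 and 52 in VP303, 38.1 and 39.2 in TU3401, and 40.2 and 51.7 in N2. The other 3 strains lay between 34.5 and 52 and NR350 stood alone, 1.73 ± 0.15 above N2 (3.31-fold, adjusted p = 5.53e-05).

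The neighbours clec-62 and clec-63 both rose in NR350. In NR350 clec-63 read 1539 and 1556, against 719 and 794 in VP303, 685 and 777 in TU3401, and 589 and 621 in N2. Its NR350 arrays were nearly equal and above all others, and the difference from N2 was 1.35 ± 0.12 (2.56-fold, adjusted p = 6.58e-05). The intensities of clec-62 were 192 and 135 in NR350, 81.5 and 70.7 in VP303, 90.4 and 83.4 in TU3401, and 65.3 and 76.4 in N2, a difference from N2 of 1.18 ± 0.18 (2.27-fold, adjusted p = 0.00227). The other genes of that run above 32 did not pass: clec-65 differed from N2 by 0.46 (adjusted p = 0.118) and clec-66 by 0.24 (adjusted p = 0.681).

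More members followed the same pattern at lower signal. The gene clec-10 gave 117 and 139 in NR350, 56.0 and 78.7 in VP303, 66.8 and 68.4 in TU3401, and 39.2 and 64 in N2 (difference from N2 1.35 ± 0.17, 2.55-fold, adjusted p = 0.000707). The gene clec-80 gave 80.8 and 92.2 in NR350, 37.3 and 52.1 in VP303, 49.2 and 51.5 in TU3401, and 38.7 and 46.7 in N2 (1.02 ± 0.13, 2.03-fold, adjusted p = 0.000992). In both genes the NR350 arrays lay above all others. The defence gene clec-41 read 52.2 on both NR350 arrays, 27.5 and 23.3 in VP303, 34.2 and 30.6 in TU3401, and 27.8 and 29.4 in N2 (0.87 ± 0.11, adjusted p = 0.000875), so that it passed 32 on both arrays of NR350 and on 1 of the others. The values of clec-160 were 99.1 and 136 in NR350, 59.3 and 52.9 in VP303, 62.2 and 51.8 in TU3401, and 64.1 and 64.3 in N2 (0.85 ± 0.17, adjusted p = 0.0131).

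**Figure D3:**
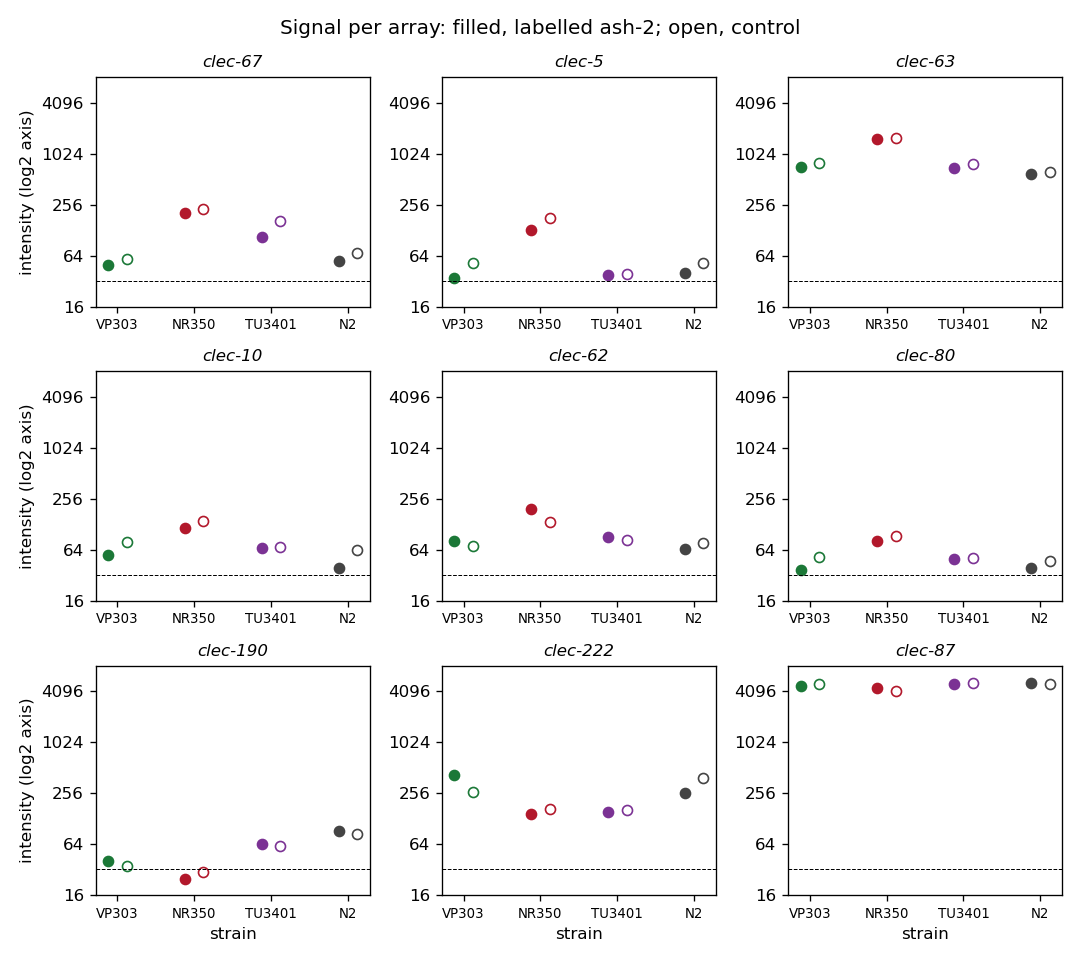
Deposited intensity (log2 axis) of 9 members by strain, 8 that passed between strains and the steady clec-87; filled points are arrays labelled ash-2, open points control arrays, and the dashed line marks 32. Both NR350 points of clec-67, clec-5, clec-63, clec-10, clec-62 and clec-80 lie above all others, and clec-190 is lowest in NR350.

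The remaining members that rose in NR350 against N2 were clec-265 (0.94, adjusted p = 0.00491), clec-83 (0.75, 0.00914), clec-56 (0.73, 0.0193), clec-84 (0.66, 0.0208) and clec-223 (0.47, 0.0204). Of these, clec-83 and clec-265 were also above N2 in VP303 without passing there. In VP303 clec-83 read 180.5 and 152, close to 186 and 163 in NR350, against 91.6 and 86.3 in TU3401 and 108 and 98.5 in N2. VP303 exceeded N2 for this gene by 0.69 (adjusted p = 0.0689), and NR350 exceeded VP303 by 0.07 (adjusted p = 0.899). The neighbour of clec-83, clec-84, read 411 and 429 in NR350 and between 240.0 and 312 in the other strains, and its difference between VP303 and N2 was −0.14 (adjusted p = 0.879).

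Comparisons of NR350 with each of the other 3 strains in turn were added after the data had been seen. NR350 passed the limma test as higher in all 3 for 9 of the 41 members: clec-5, clec-10, clec-41, clec-62, clec-63, clec-67, clec-80, clec-160 and clec-223. The share of features above 32 was 4.67%, and nothing is read from the 9 as a share, since clec-41 is among the 41 only through NR350. With the line set by the 6 arrays outside NR350, the other 8 of these genes passed as higher, of 41 members that include clec-218 in place of clec-41, against 3.97% of features. Those 6 arrays are the other side of these comparisons, and clec-218 reaches that line only through N2. No share under that line is therefore read as a result. None of the members passed as lower in NR350 against each of the other strains under either line, against 1.51% and 1.53% of features. Without a test, NR350 had the lowest mean of the 4 strains for 11 of the 41 (26.8%, against 36.2% of features above 32). Of these 9, clec-5 had the largest difference from TU3401 (1.97 ± 0.15, adjusted p = 5.45e-05), and clec-67 that from VP303 (2.00 ± 0.16, adjusted p = 4.61e-05) but only 0.71 ± 0.16 from TU3401 (adjusted p = 0.0203).

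Above 32, 3 members fell in NR350. The clearest was clec-190, which read 24.4 and 29.4 in NR350, 40.4 and 35.5 in VP303, 64.5 and 60.6 in TU3401, and 91.4 and 83.9 in N2. No pair of strains overlapped, and NR350 was 1.71 ± 0.14 below N2 (3.27-fold lower, adjusted p = 2.91e-05). Since NR350 lies near the floor of the table for this gene, the size of that fall is compressed. The gene clec-222 gave 143 and 163 in NR350, 151 and 163 in TU3401, 414 and 266 in VP303, and 253 and 389 in N2. NR350 and TU3401 overlapped and lay below the other strains, at −1.04 ± 0.24 against N2 in NR350 (adjusted p = 0.0245) and a similar difference in TU3401 that did not pass (adjusted p = 0.103). Its neighbour clec-223 went the other way in NR350, with 52.6 and 47.5 against 38.4 and 33.9 in N2. For clec-186 the NR350 arrays read 209.6 and 216 and the N2 arrays 403 and 308, a difference of −0.73 ± 0.19 (adjusted p = 0.0388).

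Among the 206 members with low signal, 5 passed between NR350 and N2. The largest was clec-218, just under the line, with 24.8 and 21.8 in NR350, 27.3 and 28.0 in VP303, 33.5 and 28.1 in TU3401, and 49.2 and 42 in N2. Both N2 arrays lay above all 6 others, and NR350 was −0.97 ± 0.11 from N2 (adjusted p = 0.000321). The other 4 were higher in NR350 by small amounts at means between 20.7 and 22.6: clec-170 by 0.27, clec-73 by 0.26, clec-28 by 0.21 and clec-72 by 0.20. These 4 calls were not stable: that of clec-73 was lost under 9 and that of clec-170 under 8 of 15 alternatives, and those of clec-28 and clec-72 under 3 each. Without the NR350 control array the clec-170 difference was 0.14, and without the N2 array labelled ash-2 that of clec-73 was 0.16.

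How many members passed between NR350 and N2 depended on single arrays. Of the 41, 7 were higher and 2 lower without the N2 array labelled ash-2, 10 and 1 without the N2 control array, and 8 and 1 without either NR350 array. The calls of clec-5, clec-10, clec-41, clec-62, clec-63, clec-67 and clec-80 as higher and of clec-190 as lower held under all 16 alternatives that were run.

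Markers of several tissues also differed between NR350 and N2, and their part in the lectin differences was not tested. Of all features, 4.02% were higher and 3.16% lower in this comparison, and of those above 32, 9.2% and 8.79%. Intestinal markers rose in 6 of 9 genes with a median difference of 0.68 over the list. The strongest was ifb-2, a filament protein of the gut (1.40, adjusted p = 0.000288). Below N2 was 1 of the 9 genes, at −0.60 on the log2 scale, which did not pass (limma unadjusted p under 0.05). The summed intensity of the list was 3665 and 3720 in NR350, 2873 and 2717 in VP303, 2633 and 2878 in TU3401, and 2476 and 2375 in N2. Muscle markers rose in 5 of 8 genes with a median of 0.96, and their sums were 2839 and 2314 in NR350 against 1353 and 799 in N2. Hypodermal markers rose in 5 of 8 genes with a median of 0.42, and neuronal markers in 1 of 10 with a median of 0.03. Oocyte markers had a median of −0.28, with 1 of 8 lower, and sums of 13822 and 15202 in NR350 against 18037 and 16152 in N2. Sperm markers were near the floor apart from nspd-1, which gave 192 and 202 in NR350 and 36.0 and 27.3 in N2, and 3 of 8 rose.

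Regulators of intestinal immunity were read beside the lectins. Of 18 listed, 16 were measured, and 6 were higher in NR350 than in N2: pmk-1, the p38 kinase (0.83, adjusted p = 0.00924), sek-1, the kinase that activates it (0.81, 0.00949), elt-2, the GATA factor of the intestine (0.78, 0.00578), vhp-1, a phosphatase acting on the pathway (0.61, 0.0378), daf-16, the FOXO factor (0.61, 0.0331), and zip-2, a bZIP factor of pathogen responses (0.55, 0.0337). None of the 16 was lower, and 14 of the 16 had a mean above 32. The gene elt-2 is also on the list of intestinal markers, so both counts hold it. Of all features, 4.02% were higher in NR350 than in N2, and of those above 32, 9.2%. No regulator passed in VP303 or in TU3401 against N2, where 2 of the 16 had an unadjusted p under 0.05 in each strain, beside 9.29% of all features in VP303 and 15.6% in TU3401. In NR350 sek-1 read 185 and 186, against 96.5 and 115 in N2, and elt-2 read 127 and 112, against 73.9 and 64.5. Galectins, another family of sugar-binding proteins, were higher in NR350 for 3 of 12 genes: lec-2 (0.90), lec-3 (0.88) and lec-1 (0.48). The shares of 4.02% and 9.2% stand beside this count too. The galectins did not pass in VP303 or TU3401, where 1 of 12 in each had an unadjusted p under 0.05, beside 9.29% and 15.6% of all features.

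Between VP303, in which RNAi acts in the intestine, and N2, few members passed, as few of all features did. In limma 2 of the 247 members passed (0.81%), with 0.64% of all features passing and 0.184% lower. Among the 41 above 32 it was 1, against 1.88%. In VP303 clec-190 was lower by 1.21 ± 0.14 on the log2 scale and had an adjusted p of 0.00212, and clec-218 had a difference of −0.72 (adjusted p = 0.0118). Both were lower in NR350 as well, where they were −1.71 and −0.97 from N2, a pair of falls met by 0.148% of all features. These comparisons share the N2 arrays. The call of clec-190 in VP303 was lost without the VP303 control array and when the variance prior had no trend with signal, and that of clec-218 with no such trend, where clec-83 passed as higher instead (adjusted p = 0.0466). The call of clec-218 was also lost without either N2 array and without the VP303 array labelled ash-2. In VP303 no intestinal, muscle, neuronal or sperm marker passed against N2, 1 of 8 oocyte markers was lower, and 2 of 8 hypodermal markers were higher, 1 of them the transgene marker rol-6; their part was not tested. Signal of the immune reporter clec-85 in VP303 was 422 on the array labelled ash-2 and 248 on the control array, so the strain mean had a wide spread.

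In TU3401, in which RNAi acts in neurons, 2 of the 247 members passed against N2, 1 higher and 1 lower, with 0.604% of all features passing, 0.374% higher and 0.23% lower. Among the 41 above 32 it was 1, against 1.48%. With the values given above, clec-67 was 2.15-fold higher (adjusted p = 0.0136), and clec-218 had a difference of −0.57 (adjusted p = 0.0437). The call of clec-67 was lost without the TU3401 control array, without either N2 array and when the variance prior had no trend, and that of clec-218 under 9 of 15 alternatives. None of the tissue markers passed in TU3401 against N2. After centring the arrays on features above 32, 144 members were higher and 3 lower, but the median of all features was then 0.13 above N2. Several members with strong signal were apart from N2 without passing. TU3401 read 1579.7 and 1697 for clec-150 (0.96, adjusted p = 0.0798), 250.2 and 284 for clec-97 against 140.3 and 179 in N2 (0.75, adjusted p = 0.0816), and 491 and 553 for clec-85 against 351 and 302 in N2 (0.68, adjusted p = 0.157). In all 3 genes both TU3401 arrays lay above both N2 arrays. In the added comparison of NR350 with TU3401, clec-97 was lower in NR350 by −1.16 ± 0.16 on the log2 scale (adjusted p = 0.00184), with 124 and 114 in NR350.

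**Figure D4:**
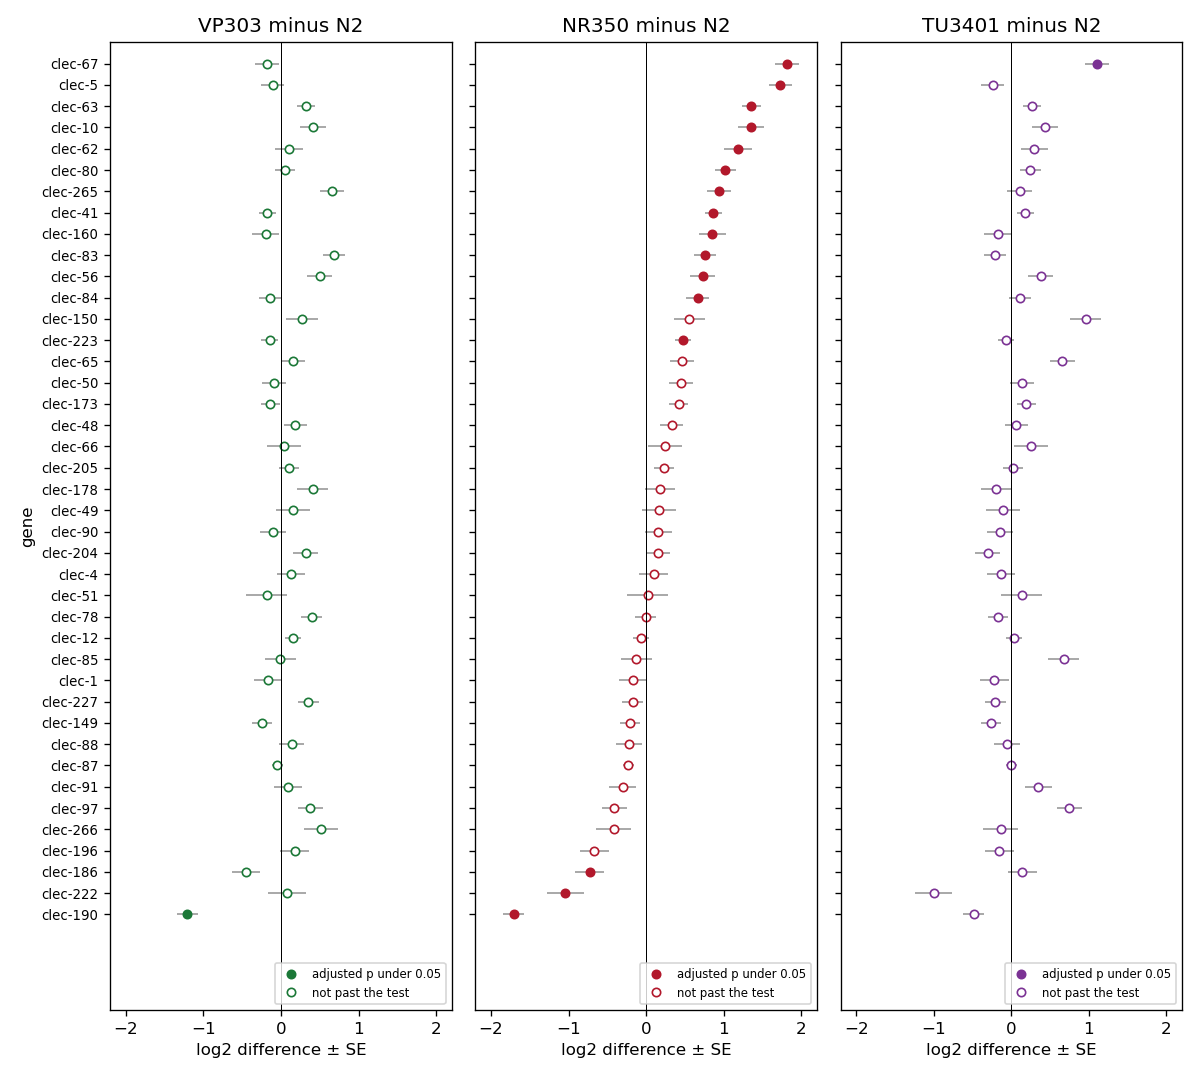
Log2 difference ± SE of VP303, NR350 and TU3401 from N2 for the 41 members above 32, in the order of the NR350 difference. Filled points passed an adjusted p of 0.05, which 16 members did in NR350, 1 in VP303 and 1 in TU3401.

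No member passed between the arrays labelled ash-2 and the control arrays. In the limma fit with strain as a block, 0 of the 247 and 0% of all features had an adjusted p under 0.05, and 16 members had an unadjusted p under 0.05, 6 of them higher and 10 lower, against 3.75% and 4.25% of all features. Among the 41 members above 32 these were 1 higher and 5 lower, with 8.29% of features above 32 higher and 5.88% lower at the same unadjusted threshold. The median difference of the 41 was 0.01 and that of the features above 32 was 0.03. The same direction in all 4 strains was seen for 11 of the 41 (26.8%), against 20.9% of features above 32.

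Among members above 32 with a lower array labelled ash-2 in each strain, clec-10, clec-5 and clec-67 had the lowest mean differences. These 3 passed as higher in NR350 than in N2. So did clec-223 and clec-83, which were higher on the arrays labelled ash-2 (0.20 and 0.16). Whether the treatment and strain differences go together was not tested. From the values given above, clec-10 was lower on the array labelled ash-2 in each strain, by −0.49 on the log2 scale in VP303, −0.26 in NR350, −0.03 in TU3401 and −0.71 in N2. Its mean was −0.37 ± 0.29 (SD over 4 strains, limma unadjusted p = 0.0094, adjusted p = 0.504). For clec-5 the differences were −0.59 in VP303, −0.47 in NR350, −0.04 in TU3401 and −0.36 in N2, with a mean of −0.37 ± 0.24 (unadjusted p = 0.0051, adjusted p = 0.441). For clec-67 they were −0.26, −0.16, −0.64 and −0.32 in the same order of strains, with a mean of −0.34 ± 0.21 (unadjusted p = 0.0098, adjusted p = 0.504). All 3 were lower in 4 of 4 strains, and TU3401 showed the smallest difference for clec-10 and clec-5 but the largest for clec-67. Over the alternatives the adjusted p of these 3 ranged between 0.0552 and 1.00.

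Also lower in all 4 strains were 4 further members, with mean differences of −0.29 ± 0.18 for clec-65, −0.25 ± 0.18 for clec-80, −0.18 ± 0.20 for clec-56 and −0.10 ± 0.07 for clec-63. Higher in all 4 strains were clec-223 (0.20 ± 0.05), clec-83 (0.16 ± 0.07), clec-173 (0.15 ± 0.08) and clec-12 (0.13 ± 0.08). The small spread of clec-223 came from differences of 0.22 in VP303, 0.15 in NR350, 0.26 in TU3401 and 0.18 in N2. None of these 8 passed (adjusted p between 0.556 and 0.787).

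**Figure D5:**
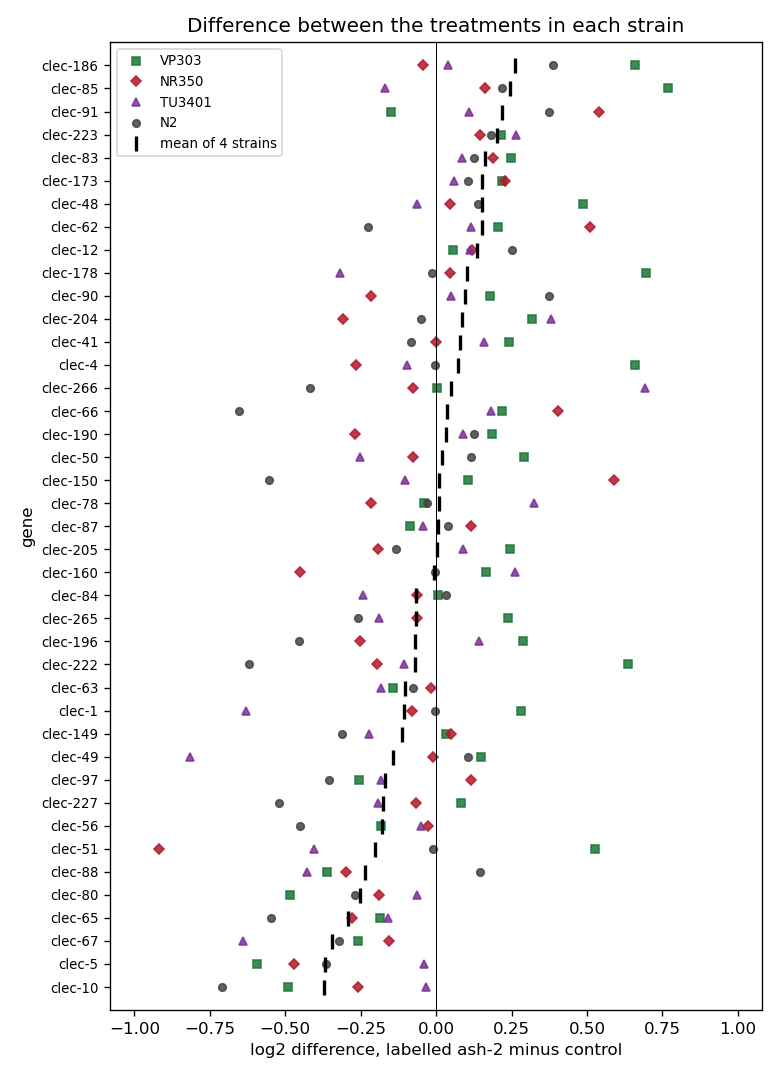
Log2 difference between the array labelled ash-2 and the control array in each strain for the 41 members above 32, in the order of their mean over 4 strains. Points of 4 strains scatter on both sides of 0 for most genes, and 11 genes have all 4 on 1 side.

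Within single strains, where there is no replicate, no member above 32 differed 2-fold between the arrays, while of the features above 32, 0.138% were 2-fold higher in VP303, 0.127% in NR350, 0.173% in TU3401 and 0.138% in N2, and in that order 1.02%, 0.334%, 0.242% and 0.978% were 2-fold lower. At 1.5-fold, 5 members were higher and 1 lower in VP303 (1.6% and 1.99% of features above 32), 1 higher and 1 lower in NR350 (0.955% and 2.3%), 1 higher and 3 lower in TU3401 (3.01% and 2.13%), and 0 higher and 3 lower in N2 (1.46% and 3.15%). The median difference of the 41 was 0.18 in VP303, −0.06 in NR350, −0.05 in TU3401 and −0.03 in N2. For features above 32 the medians were 0.04, −0.01, 0.03 and 0.04 in that order.

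In VP303 the members furthest up on the array labelled ash-2 were clec-85 (422 against 248 on the control array), clec-178 (86.9 against 53.7) and clec-186 (324 against 205). The gene clec-4, with 56.0 against 35.5, and clec-222, with 414 against 266, made up the 5. The 1 member down by 1.5-fold was clec-5, with 34.5 against 52. In NR350 clec-150 was up, with 1524 against 1012, and clec-51 down, with 54.9 against 104. In TU3401 clec-266 was up, with 185 against 115, and clec-49 (107 against 189), clec-67 (105 against 164) and clec-1 (652 against 1008) were down. In N2 clec-10 (39.2 against 64), clec-66 (70.5 against 111) and clec-222 (253 against 389) were down. The gene clec-222 was thus up in VP303 and down in N2 by similar amounts, 0.64 and −0.62 on the log2 scale. Short of 1.5-fold, clec-91 (0.54) and clec-62 (0.51) were next up in NR350, clec-204 (0.38) and clec-78 (0.32) in TU3401, and clec-186 (0.39), clec-91 (0.37) and clec-90 (0.37) in N2.

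The response of the strains in which RNAi acts in the intestine, N2 and VP303, was set against that of NR350 and TU3401. In limma 0 of the 247 members and 0% of all features passed, and 15 members had an unadjusted p under 0.05, 5 of them higher and 10 lower, against 2.98% and 2.76% of all features. Among the 41 members above 32, 4 were higher and 1 lower at that unadjusted threshold, with 4.16% and 2.81% of features above 32. The largest difference belonged to clec-51, at 0.92 ± 0.25 (SE, unadjusted p = 0.0037, adjusted p = 0.589). It was up by 0.53 in VP303 and at −0.01 in N2, against −0.92 in NR350 and −0.40 in TU3401. Next were clec-49 (0.54), clec-186 (0.53) and clec-4 (0.51), with adjusted p between 0.861 and 0.897. The lowest members whose strains separated were clec-10 (−0.45), clec-56, clec-97 and clec-80, and for clec-10 the adjusted p was 0.864.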

How the data were processed

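Total RNA of 8 samples was read on 8 single-colour Affymetrix arrays (C. elegans Gene 1.0 ST). Per the design text, the authors read the images with Affymetrix software and GeneSpring, and RMA is named in the submitters' processing notes; its settings are not stated there. The deposited intensity is linear and normalized by the authors, and log2 was taken with nothing added. Features were named by the platform annotation, and all 247 member identifiers were found in the RefSeq table.

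All features were fitted with limma 3.58.1 in R 4.3.3 (lmFit, eBayes with a trend, two-sided, Benjamini-Hochberg over 27792 features, threshold 0.05). Strain plus treatment left 3 residual degrees of freedom, and the comparison of responses 2. The number of arrays limits the precision. Arrays of a strain pair because they share the strain; deviations from the treatment means correlated at 0.576 in VP303, 0.840 in NR350, 0.526 in TU3401 and 0.684 in N2. The fits were tested on simulated data. Alternatives were other scalings, filters, variance priors and thresholds, leaving out arrays, and no strain block.

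Named genes were those past the test by size with a mean above 32, the extremes in each direction that shared it in all strains, the extremes within each strain and the 12 strongest signals. Further members were named after their values were seen, so that each one that passed is given. Gene lists came from general knowledge. The members and lists were chosen with earlier results of these data known.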

Additional observations from a re-analysis of the deposited data

Results flagged for a closer look

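The difference of clec-49 between the array labelled ash-2 and the control array in TU3401, −0.82 on the log2 scale, lay far from those of the other strains, which were 0.15 in VP303, −0.01 in NR350 and 0.11 in N2. About 1 in 20 such sets would stand out by chance, and 41 genes were looked at. The response of N2 and VP303 minus that of NR350 and TU3401 was 0.54 for this gene (limma adjusted p = 0.897), since both of the first were above 0 and both of the others below it, NR350 by only 0.01. That value rested on TU3401: it was 0.14 without the TU3401 pair and 0.94 without the NR350 pair, and did not pass in either case.

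Of the features that carry several symbols, 2 stood well above the line of 32, both shared by clec-209 and F56A4.2, with means of 894.5 and 894.3. They cannot be given to either gene. The values of the brighter feature were 736 and 489 in VP303 (array labelled ash-2, then control), 804 and 412 in NR350, 830.3 and 779 in TU3401, and 1596 and 1510 in N2.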

How the results depend on the processing

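None of the gene values recomputed under the alternatives changed sign, but the direction of the VP303 calls and the median treatment difference of the 41 members above 32 changed. That median was 0.01 in the fit reported, −0.02 after centring on features above 32, and between −0.08 and 0.03 with 1 strain's pair left out, lowest without VP303. Members called for any strain, 20 of 247, numbered 12 without a trend, 34 at a threshold of 0.10 and between 13 and 24 when 1 array was left out. In VP303 against N2, with 2 called, both lower, there was 1 without a trend, which was clec-83 and higher, while both reported calls were lost, and between 1 and 2 with 1 array left out. In NR350 against N2, with 21 called, left-out arrays gave between 11 and 22. In TU3401 against N2, with 2 called, there was 1 after quantile normalization, 1 after subtracting 16, 0 without a trend, 5 at 0.10, and between 0 and 4 with 1 array left out. Centring on features above 32, chosen after seeing the data, gave 102 for any strain, 4 in VP303 (2 higher and 2 lower), 32 in NR350, 147 in TU3401 and 1 for the difference of responses, which was clec-51. That centring moved the median TU3401 difference of all features to 0.13, against 0.01 in the fit reported, and only 12 higher and 2 lower of the 147 had a mean above 32; the cause of the other changes was not tested. The difference of responses gave between 0 and 1 with strains left out. Without the strain as replicate block, 0 members passed for the treatment, as with it. Counts 2-fold within strains were 0, and at 1.5-fold they were 5, 1, 1, 1, 1, 3, 0 and 3 as given in the report. At a line of 64, 27 members had signal. For named genes, 557 values under alternatives kept their side of the threshold, 74 lost it and 1 gained it.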
